A study of Mus musculus with 9 samples.

Results

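Chemokines and their receptors were read out as the histone marks H3K27me3 and H3K4me3 in mouse MLL-ENL leukemia cells. The set holds the 62 genes, of 26611 genes with a symbol, whose symbol starts with Ccl, Cxcl, Ccr, Cxcr, Xcl, Xcr, Cx3cl, Cx3cr or Ackr followed by a number. By role these are 24 CC ligands, 13 CXC ligands, 1 CX3C ligand, 1 XC ligand, 11 CC receptors, 6 CXC receptors, 1 CX3C receptor, 1 XC receptor and 4 atypical receptors. MLL-ENL is a leukemogenic protein that joins the products of Kmt2a (MLL) and Mllt1 (ENL). All 3 genotypes carry that leukemia: a floxed line (labelled fl), a deleted line (ΔERT2), and a deleted line with Flag-tagged Hhex (ΔERT2 + Hhex-F), called the rescue line here. The labels name neither the floxed gene nor whether a line is a clone, and the series title is the ground for reading the gene as Hhex. Each mark has 1 library per genotype, so differences between genotypes carry no replicate check, and none was tested.

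H3K27me3 was counted over about the gene span and H3K4me3 in a window of 301 bp per gene. Counts in named genes ranged from 2444487 to 4203349 for H3K27me3 and from 395133 to 645240 for H3K4me3, and were scaled to that total as CPM. Genes averaging 20 or more counts across the libraries of a mark are termed measured. Such a gene is called lower or higher between genotypes if the ratio of its CPM values reached 1.5 that way with a 95% interval that excluded 1. Where 3 values of a gene follow each other they stand for floxed, deleted and rescue. All intervals, given in parentheses after a value, cover counting error only. As a check of the cell type, 10 of 12 haematopoietic and myeloid markers were measured for H3K4me3, with a summed level of 1395.3 to 1577.7 CPM. None of 6 T cell, 5 B cell, 4 NK cell, 4 erythroid or 4 endothelial markers was measured (13.9 to 40.5, 7.75 to 19.0, 47.5 to 62.0, 20.2 to 34.1 and 23.2 to 57.0 CPM), and 1 of 4 fibroblast markers was (70.9 to 95.1 CPM). By the strand counts given further on, the window misses the start of minus-strand genes, so only plus-strand markers bear on this. Of these, 7 of 7 haematopoietic and myeloid markers were measured, against 0 of 2 for T cells (Cd3d and Cd8a), 0 of 1 for B cells (Cd79a) and 0 of 3 for NK cells. For erythroid, endothelial and fibroblast cells 0 of 1, 0 of 1 and 0 of 2 were. Ptprc, the pan-leukocyte antigen gene on the minus strand, had 0 H3K4me3 counts in all 3 libraries.

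Chemokines are small secreted proteins that bind G protein-coupled receptors and guide the migration of leukocytes, and they are named after the spacing of conserved cysteines. Many lie in tandem clusters, as do several of the receptors. Atypical receptors bind chemokines without G protein signalling and scavenge or transport them. H3K27me3 is placed by Polycomb repressive complex 2 and marks repressed chromatin, whereas H3K4me3 marks the starts of active or poised genes. In myeloid cells many inflammatory chemokine genes are induced through NF-kappaB, and Cxcr4 with its ligand Cxcl12 retains haematopoietic cells in the bone marrow.

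The start regions of the neutrophil attractants Cxcl1, Cxcl2 and Cxcl3 are shown because the H3K4me3 results below turn on these neighbours (250 bases before to 50 after the start, RefSeq, GRCm38.p6, plus strand of chromosome 5, at chr5:90890995-90891294, chr5:90903649-90903948 and chr5:90785851-90786150). Capitals mark matches to the 9-base NF-kappaB pattern GGNNTTTCC on either strand.
Cxcl1: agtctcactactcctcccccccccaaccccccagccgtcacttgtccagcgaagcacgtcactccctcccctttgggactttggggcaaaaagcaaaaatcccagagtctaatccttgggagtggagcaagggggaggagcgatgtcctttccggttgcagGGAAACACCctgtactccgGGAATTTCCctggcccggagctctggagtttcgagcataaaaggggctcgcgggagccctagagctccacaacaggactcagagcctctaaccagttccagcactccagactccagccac
Cxcl2: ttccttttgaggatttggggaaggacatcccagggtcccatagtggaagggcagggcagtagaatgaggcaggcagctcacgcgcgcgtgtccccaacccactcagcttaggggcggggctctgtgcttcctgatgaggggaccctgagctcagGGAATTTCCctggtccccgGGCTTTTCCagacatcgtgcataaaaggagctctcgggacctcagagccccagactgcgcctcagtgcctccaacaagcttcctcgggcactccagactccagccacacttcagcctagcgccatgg
Cxcl3: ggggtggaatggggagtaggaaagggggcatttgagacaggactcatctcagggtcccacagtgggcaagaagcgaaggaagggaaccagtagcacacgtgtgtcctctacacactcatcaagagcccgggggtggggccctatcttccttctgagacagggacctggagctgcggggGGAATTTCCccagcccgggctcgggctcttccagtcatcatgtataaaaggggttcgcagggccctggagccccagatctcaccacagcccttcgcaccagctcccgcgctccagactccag
This pattern was in 9 of the 46 members with a start sequence in the table (Ackr4, Ccl9, Ccl20, Ccr3, Cxcl1, Cxcl2, Cxcl3, Cxcl9 and Cxcl10), and in 5.70% of 27025 gene starts in all. In Cxcl1 and Cxcl2 it occurs at 2 places each. TATAAA, also read on both strands, was in 13 of the 46 members and in 14.2% of all starts. The interferon response pattern TTCNNTTTC was in 8 members and in 8.58% of all starts. In the members no match to one of these patterns overlapped a match to another. These matches describe letters in this stretch only.

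The starts of Cxcl12, the Cxcr4 ligand made by stroma, and Cx3cl1, the membrane-tethered fractalkine, are shown because these are the members with both marks measured (plus strand, chr6:117168285-117168584 and chr8:94771930-94772229). Fyco1, which encodes an adaptor of autophagic vesicle transport, is no member. Its start (minus strand, chr9:123851850-123852149) is shown because it lies beside the window counted for Xcr1. Capitals mark CpG dinucleotides, of which there are 20, 19 and 25.
Cxcl12: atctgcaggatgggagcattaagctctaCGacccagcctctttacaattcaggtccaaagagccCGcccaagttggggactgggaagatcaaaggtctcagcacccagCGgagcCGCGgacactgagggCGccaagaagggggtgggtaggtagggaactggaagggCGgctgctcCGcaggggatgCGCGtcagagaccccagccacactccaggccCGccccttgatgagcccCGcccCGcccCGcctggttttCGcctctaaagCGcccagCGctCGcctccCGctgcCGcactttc
Cx3cl1: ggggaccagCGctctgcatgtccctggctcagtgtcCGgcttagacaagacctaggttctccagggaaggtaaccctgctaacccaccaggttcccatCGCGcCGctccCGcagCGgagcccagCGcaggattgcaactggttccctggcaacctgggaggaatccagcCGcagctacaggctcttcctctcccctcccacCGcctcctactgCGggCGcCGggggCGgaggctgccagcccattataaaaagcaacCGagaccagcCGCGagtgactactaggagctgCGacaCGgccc
Fyco1: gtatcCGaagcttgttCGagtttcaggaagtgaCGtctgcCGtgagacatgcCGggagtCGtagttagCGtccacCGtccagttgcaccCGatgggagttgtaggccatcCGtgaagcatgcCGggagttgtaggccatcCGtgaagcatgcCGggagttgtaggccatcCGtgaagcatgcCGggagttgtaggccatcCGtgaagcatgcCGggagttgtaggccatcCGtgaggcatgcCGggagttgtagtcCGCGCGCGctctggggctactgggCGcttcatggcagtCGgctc

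Before the H3K4me3 values are read, the place of the counted window has to be known, and the files do not state it. The counts by strand place it at the end of the gene with the lower coordinate, which is the start of a plus-strand gene but the far end of a minus-strand gene. Of 7803 plus-strand genes with a single RefSeq start, 50.1% were measured for H3K4me3, against 4.00% of 7834 minus-strand genes. Among genes with 20 or more CpG in the start region the shares were 86.4% and 5.08%. Of minus-strand genes with a span of 10 kb or more, 29.2% of 65 were measured where the start of another gene lay within 500 bp of the low-coordinate end. Where no other start lay within 5000 bp of that end, 0.929% of 3983 were measured. The window of Ptprc, at 0 counts, thus does not lie at its start.

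**Figure D1:**
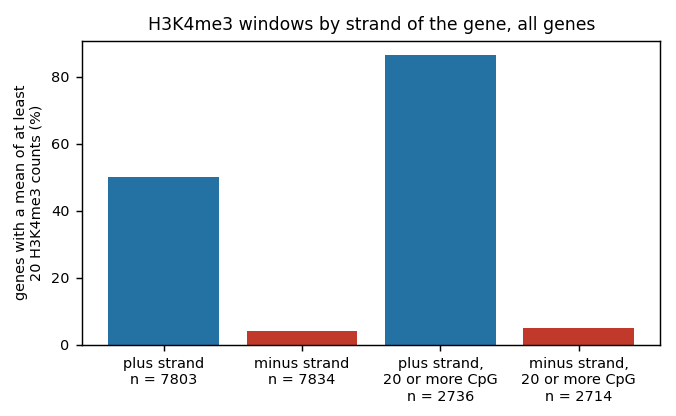
Share of all genes (%, vertical axis) with a mean of at least 20 H3K4me3 counts over the 3 libraries, by strand of the gene and for genes with 20 or more CpG in the start region. Plus-strand genes reach 50.1% and 86.4% and minus-strand genes 4.00% and 5.08%.

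For the members this splits the H3K4me3 data into 3 kinds. The low-coordinate end lay within 500 bp of the member's own start for 23 members, all on the plus strand. It lay farther away for 23 others, 21 of them on the minus strand. The 2 on the plus strand, Ccl17 and Ccr3, had counted lengths of 1584 and 9719 bp against RefSeq spans of 2659 and 13868 bp. Ccl21b, placed at its own start, had 1095 bp against 83706 bp. The place of the window is uncertain for these genes. The strand of 15 members is not in the sequence table, and Ccl21c has no place on the assembled chromosomes in the table. Of the 7 measured members, Cxcl12, Ccl25, Cxcl2 and Cx3cl1 had the window at their own start, and Cxcr4, Ccl3 and Xcr1 at their far end. In all, 11.3% of members were measured for H3K4me3, against 25.1% of all named genes, and both shares include windows at far ends. With the window at the own start 4 of 23 members were measured, against 50.1% of plus-strand genes with a single start.

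Among the ligands with the window at their own start, Cxcl12 carried the most H3K4me3. It had 141, 77 and 58 counts. Deleted stood at 0.838 (0.626 to 1.11) of floxed, whereas rescue stood at 0.672 (0.486 to 0.918) of floxed, just short of the size rule. In bulk chromatin a smaller share of marked cells and less of the mark in each cell cannot be told apart. The summed level of fibroblast markers was 86.8, 95.1 and 70.9 CPM, and the part of stromal cells in the Cxcl12 signal was not tested. Cxcl2, which recruits neutrophils through Cxcr2, had 43, 23 and 20 counts, standing at 0.820 (0.472 to 1.39) of floxed in deleted and 0.760 (0.423 to 1.32) in rescue. Cx3cl1 had 41, 32 and 21 counts. Neither gene was called in any comparison.

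Ccl25, which guides T cells to thymus and gut through Ccr9, had 77, 43 and 38 counts. Its low-coordinate end lies 105 bp from the start of Elavl1, a broadly expressed RNA-binding protein gene on the opposite strand. The counts cannot be assigned to either start. The Elavl1 window, at its far end, had 0, 1 and 0 counts.

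Below the filter, the inflammatory ligand Cxcl3 had 24, 10 and 4 counts at its own start, highest in floxed and lowest in rescue. Rescue stood at 0.272 (0.0686 to 0.792) of floxed. Cxcl1 had 6, 4 and 0 counts and Cxcl15, a lung-expressed ligand, 3, 1 and 0. Summed over the 6 CXC ligands with the window at their own start, there were 217, 116 and 82 counts. The deleted sum was 0.820 (0.649 to 1.03) of floxed and the rescue sum 0.617 (0.473 to 0.799). Without Cxcl12 the sums were 76, 39 and 24 and the rescue to floxed ratio came to 0.516 (0.312 to 0.825). The 8 CC ligands with the window at their own start had 96, 61 and 57 counts. Rescue stood at 0.970 (0.686 to 1.36) of floxed for this sum, an interval that overlaps that of the CXC sum. Of these counts Ccl25 held 77, 43 and 38, which cannot be assigned to its start or that of Elavl1. The CC sum thus rests mostly on that window. These sums were formed after their values were seen.

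Among receptors with the window at or near their own start, Ccr2, which brings monocytes out of the bone marrow, had 29, 13 and 12 counts and lay just below the filter. Deleted stood at 0.688 (0.328 to 1.36) of floxed. Ccr6, the Ccl20 receptor, had 3, 7 and 0 counts, and Ccr8, Ccr9, Cxcr2 and Cxcr6 had at most 1 count in any library.

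At own starts, measured members were richer in CpG. The 4 measured members had 11 to 52 CpG with a median of 19.5, and the 19 others 1 to 45 with a median of 3. The 45 is that of Ccl21b, whose window is uncertain. Over all plus-strand genes with a single start the medians were 22 for measured and 4 for other genes.

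The member called in H3K4me3 in deleted against floxed was Xcr1, the receptor of Xcl1 that marks cross-presenting dendritic cells. Its window had 49, 11 and 24 counts. Deleted stood at 0.344 (0.161 to 0.671) of floxed and rescue at 2.32 (1.10 to 5.25) of deleted, so the deleted library was the low one. Xcr1 lies on the minus strand, and the low-coordinate end of its span is 9714 bp from its own start and 416 bp from the start of Fyco1 shown above. The window counted for Fyco1, also a minus-strand gene, had 1, 0 and 0 counts. The counts listed for Xcr1 therefore do not measure the start of Xcr1. By the call rule 1 of 7 measured members was lower and 0 higher in this comparison, where 4.39% of all 6681 measured genes were lower and 3.02% higher. Among the 361 measured minus-strand genes 8.59% were lower.

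From deleted to rescue, 2 of 7 members were called higher and 0 lower, where 4.49% of all genes were higher and 5.97% lower. Among measured minus-strand genes 9.42% were higher. These 2 members were Xcr1 and Cxcr4, the receptor of Cxcl12. Cxcr4 had 44, 23 and 39 counts, with deleted at 0.802 (0.462 to 1.36) of floxed and rescue at 1.81 (1.05 to 3.17) of deleted. Its window also lies at the far end, 4100 bp from its own start, and the nearest other start in the table is 45844 bp away. In rescue against floxed 0 of 7 members were lower or higher, where 3.92% and 1.92% of all genes were. The median log2 ratio of the 7 members was -0.28 for deleted against floxed, -0.09 for rescue against deleted and -0.31 for rescue against floxed, against -0.03, 0.03 and -0.01 for all measured genes.

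The macrophage inflammatory ligands Ccl3 and Ccl9, on the minus strand, had H3K4me3 at their far ends as well. Ccl3 had 43, 21 and 22 counts in a window 1535 bp from its start, and Ccl9 27, 10 and 20 in a window 5719 bp from its start. Ccl3 was not called, and Ccl9 lay just below the filter. Of members whose strand is not in the table, Cxcl16, a transmembrane ligand of Cxcr6, had 13, 2 and 1 counts, and Ccl5, the T cell attractant RANTES, 7, 0 and 14. Ccl2, the main monocyte attractant, had 12, 12 and 2 counts. All 3 lay below the filter.

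**Figure D2:**
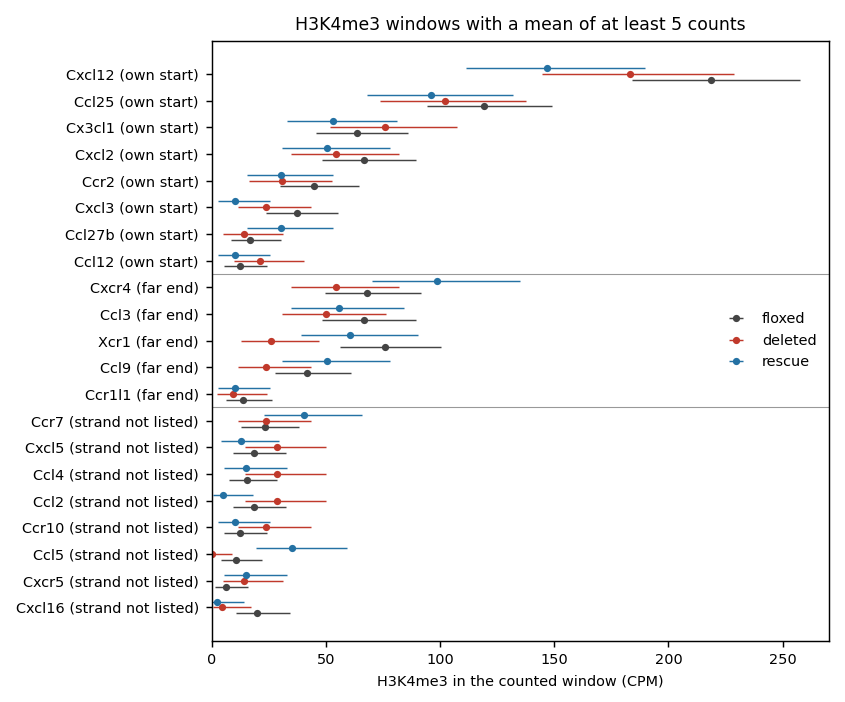
H3K4me3 level (CPM, horizontal axis) of the members with a mean of at least 5 counts, in the floxed, deleted and rescue libraries. Points are single libraries, lines are 95% Poisson intervals of the count, and grey lines part windows at the own start, at the far end and with no listed strand; Cxcl12 has the highest level, and the deleted value of Xcr1 lies below its floxed value.

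H3K27me3 was measured at 23 of the 62 members, 37.1%, against 39.8% of all named genes. These shares depend on the counted length as well as on the level, whereas density is given per kb. The median density over members was 0.797, 0.735 and 0.673 CPM per kb in floxed, deleted and rescue, and over all genes 0.204, 0.231 and 0.231 CPM per kb. The densest were Cxcl14, an epithelial homeostatic ligand, at 20.2 CPM per kb in floxed, Cxcl12 at 12.5 and the skin-homing receptor gene Ccr10 at 11.5. Next came Xcl1, which encodes lymphotactin, at 8.15, and Cxcl5, which recruits neutrophils, at 8.09. At the low end Cxcr4, the inflammatory ligands Ccl3, Ccl4 and Ccl9, and Ccr2 had at most 7 counts in any library. Of the members, 21 had only H3K27me3 measured, 5 only H3K4me3, 2 both and 34 neither. These classes describe counts and not the state of the start, because the H3K4me3 window misses the start of minus-strand genes. Cxcr4, Ccl3 and Xcr1, among the 5, had that window at their far end.

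**Figure D3:**
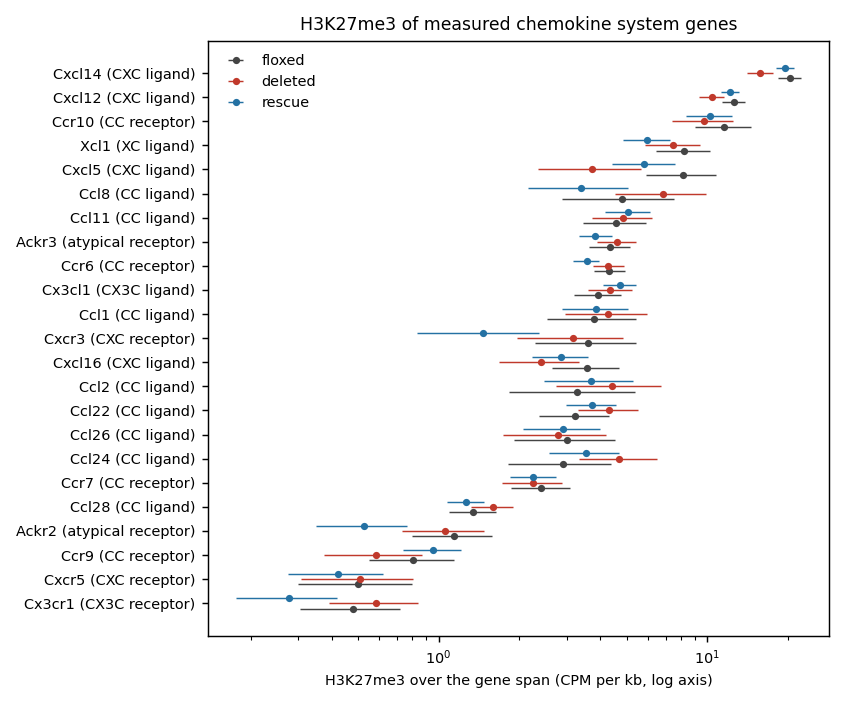
H3K27me3 density (CPM per kb of the counted length, log axis) of the 23 measured members in the floxed, deleted and rescue libraries. Points are single libraries and lines 95% Poisson intervals of the count; the floxed values run from 0.480 for Cx3cr1 to 20.2 for Cxcl14, and most members overlap between libraries.

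The clusters differed in H3K27me3 level, and on chromosome 11 neighbouring clusters did so in every library. The 6 genes of the monocyte and eosinophil attractant cluster (Ccl2, Ccl7, Ccl11, Ccl12, Ccl8 and Ccl1, 82035577 to 82179812) had 3.84, 4.46 and 4.01 CPM per kb in floxed, deleted and rescue. The 5 genes of the next cluster (Ccl5, Ccl9, Ccl6, Ccl3 and Ccl4, 83525778 to 83664683) had 0.254, 0.225 and 0.345 CPM per kb. Ccl6 in that cluster was at 0 inside another gene. The RefSeq spans of Ccl3 and Ccl4 overlap, but Ccl4 was counted over 2100 bp against a span of 16060 bp. Whether the counted stretches overlap is thus not known here. The chromosome 8 cluster of Ccl22, Cx3cl1 and Ccl17 had 3.34, 3.94 and 3.96, and the receptor cluster of 8 genes on chromosome 9 (123767211 to 124127183) 0.385, 0.320 and 0.406. In that receptor cluster Ccr9 was the only measured member, with 32, 24 and 65 counts. Near-identical gene copies may share reads in the chromosome 4 cluster of Ccl19, Ccl21 and Ccl27 copies, so its 40, 26 and 35 counts are uncertain.

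On chromosome 5 the Cxcl5, Cxcl3, Cxcl15, Cxcl1 and Cxcl2 cluster (90759298 to 90905938) had 78, 47 and 89 H3K27me3 counts, a deleted to floxed ratio of 0.581 (0.396 to 0.845). Scaled to depth, rescue also stood below floxed, at 0.664 (0.484 to 0.911). Without Cxcl5 the counts were 32, 25 and 32, and the deleted to floxed ratio was 0.753 (0.428 to 1.31). The rescue to floxed ratio of these remaining genes was 0.582 (0.345 to 0.980). Pf4 and Ppbp, platelet chemokine genes of this cluster that the symbol rule does not take, had at most 9 counts in any library. The next cluster, of the interferon-induced Cxcr3 ligands Cxcl9, Cxcl10 and Cxcl11, begins beside a stretch with much less H3K27me3 in the deleted library. There Ppef2, a phosphatase gene, had 815, 105 and 1567 counts and Naaa, which encodes an acid amidase, 141, 7 and 358. Sdad1, between Naaa and Cxcl9, had 9, 12 and 7 counts and Cxcl9 itself 7, 7 and 4, so the low levels of Cxcl9 and Sdad1 gave no such difference at this depth. Art3, which spans Cxcl10 and Cxcl11, had 228, 181 and 314.

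For deleted against floxed the member called in H3K27me3 was Cxcl5. It had 46, 22 and 57 counts, and deleted stood at 0.461 (0.264 to 0.782) of floxed. The deleted library was the low one, and the rescue to deleted ratio of 1.56 (0.941 to 2.68) had an interval that included 1. By the call rule 1 of 23 measured members was lower and 0 higher, where 5.39% of all 10604 measured genes were lower and 4.72% higher, so the share is near the background. The median log2 ratio was -0.01 for members and 0.02 for all measured genes.

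The members with the most counts had small differences with intervals that excluded 1 and did not reach the size rule. Cxcl14 had 391, 314 and 645 counts, giving a deleted to floxed ratio of 0.774 (0.665 to 0.900). Cxcl12 had 393, 340 and 651 counts, giving a ratio of 0.834 (0.719 to 0.967). In rescue against deleted their ratios were 1.24 (1.08 to 1.42) and 1.16 (1.01 to 1.32), and the rescue values lay close to the floxed ones. With fewer counts, Ccr6 had 223, 229 and 315 and Ackr3, the scavenger of Cxcl12, 130, 143 and 198. Deleted stood at 0.990 (0.820 to 1.20) of floxed for Ccr6 and 1.06 (0.830 to 1.36) for Ackr3. Rescue stood at 0.830 (0.698 to 0.988) of deleted and 0.821 (0.690 to 0.980) of floxed for Ccr6, below 1 where Cxcl14 and Cxcl12 were above 1 in rescue against deleted, and short of the size rule.

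Of the 8 measured CC ligands, 7 had intervals that included 1 in every comparison, and Ccl8 did not. Ccl11, an eosinophil attractant, had 57, 63 and 109 counts, and the mucosal ligand Ccl28 had 100, 123 and 162. Ccl22, a Ccr4 ligand, had 45, 62 and 89 counts and Ccl24, an eosinophil attractant as well, 22, 37 and 46. Deleted stood at 1.33 (0.890 to 2.00) of floxed for Ccl22 and 1.62 (0.932 to 2.89) for Ccl24, so that for Ccl24 the size was reached and the interval was too wide. Ccl1 had 29, 34 and 51 counts, Ccl2 15, 21 and 29, and Ccl26 23, 22 and 38. Summed over all 24 CC ligands, with 390, 470 and 683 counts, deleted stood at 1.16 (1.01 to 1.33) of floxed. Summed over all 13 CXC ligands, with 921, 754 and 1474 counts, it stood at 0.789 (0.716 to 0.870). Without Cxcl12 and Cxcl14 the CXC sum was 137, 100 and 178 and the value 0.704 (0.538 to 0.917). Rescue stood at 0.931 (0.857 to 1.01) of floxed for the full CXC sum and at 0.756 (0.601 to 0.951) for this remainder. This remainder still holds Cxcl5, the member called lower in deleted against floxed, with 46, 22 and 57 counts. A CXC sum that also leaves out Cxcl5 was not formed.

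Among the remaining members, Cx3cl1 had 98, 113 and 203 counts, Cxcl16 50, 35 and 69, and Xcl1 77, 73 and 97. The receptor of lymph node homing, Ccr7, had 64, 62 and 103, Ccr10 69, 60 and 105, and the B cell follicle receptor Cxcr5 18, 19 and 26. None of these 6 was called. The 39 members not measured for H3K27me3 had at most 29 counts in a library, and 9 of them, Ccl21c included, had 0 in all 3. For H3K4me3 the 55 members not measured also had at most 29 counts, 37 of them at most 5 in every library, and 8 had 0 in all 3.

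From deleted to rescue, 4 of 23 members were called lower and 1 higher in H3K27me3, where 11.3% of all genes were lower and 7.07% higher. The lower ones were receptors and a ligand of low count. Cxcr3, the receptor of Cxcl9 and Cxcl10 on activated T cells, had 23, 21 and 16 counts, giving a ratio of 0.460 (0.224 to 0.924). Cx3cr1, the fractalkine receptor of patrolling monocytes, had 23, 29 and 23 counts, giving a ratio of 0.478 (0.264 to 0.856). Ackr2, a scavenger of inflammatory CC chemokines, had 35, 34 and 28 counts, giving a ratio of 0.497 (0.290 to 0.844). Ccl8, a monocyte attractant, had 19, 28 and 23 counts, giving a ratio of 0.496 (0.273 to 0.892). The rescue library had the lowest CPM of the 3 for each of these genes. The rescue to floxed ratio of Ccl8, 0.704 (0.367 to 1.37), had an interval that included 1.

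The member that was higher was Ccr9, with a ratio of 1.63 (1.01 to 2.73). The median log2 ratio was -0.21 for members and -0.06 for all measured genes.

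Some genes beside the called members were called in the same direction. In rescue against deleted, where 11.3% of all measured genes were lower, 2 of 3 measured genes within 100 kb of Cx3cr1 were lower. These were the muscle gene Xirp1, with 49, 84 and 44 counts, and the cilium gene Ttc21a, with 45, 114 and 49. Within 100 kb of Ackr2, 2 of 5 were lower, Cyp8b1, a bile acid synthesis enzyme gene, with 17, 29 and 16 counts, and Fam198a with 119, 141 and 150. Beside Ccr9 the 1 measured gene, Slc6a20a, a proline transporter gene with 473, 451 and 803 counts, was not called. Cxcr3, Ccl8 and Cxcl5 had no measured neighbour within 100 kb that is no member.

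In rescue against floxed, 2 of 23 members were lower, Ackr2 with a ratio of 0.465 (0.273 to 0.787) and Cxcr3 with 0.405 (0.200 to 0.800), and 0 were higher. Among all genes 8.05% were lower and 5.72% higher. The median log2 ratio was -0.09 for members and -0.05 for all genes.

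**Figure D4:**
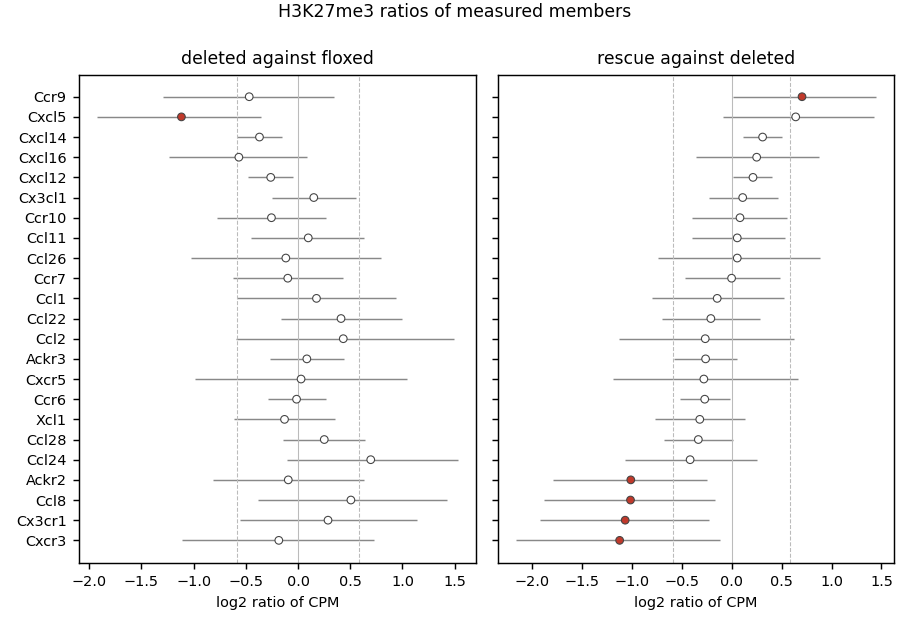
Log2 CPM ratios of H3K27me3 for the 23 measured members in deleted against floxed and in rescue against deleted, ordered by the latter. Lines are 95% intervals that cover counting error only, dashed lines mark a ratio of 1.5 in either direction, and filled points are called members: Cxcl5 on the left, and Ackr2, Ccl8, Ccr9, Cx3cr1 and Cxcr3 on the right.

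A listed 0 in H3K27me3 does not show that the mark is absent. Of the members of at least 1500 bp, 8 had 0 counts in all 3 libraries, and 6 of these lie inside the span of another gene. They are Cxcl10 and Cxcl11 inside Art3, Cxcr6 inside Fyco1, Ackr4 inside Acad11, Ccl6 inside E230016K23Rik and Cxcl17 inside 4732471J01Rik. The other members at 0 are Ccl17 and Ccl19. Of the 50 other members of that length, 0 lie inside another gene. Over all placed genes of that length the shares were 66.2% of 912 genes with 0 counts and 0.909% of 20343 others.

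No Flag summit was found near a member in the rescue line alone. There are 475, 220 and 429 summits in the lists, each of which has 1 summit within 10 kb of a member. It is the same place on chromosome 11, 8334 to 8350 bp from Ccl8, at 82125133, 82125149 and 82125144, with −log10 scores by the authors of 6.54, 6.92 and 3.55. The floxed and deleted lines carry no Flag-tagged Hhex by their labels.

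Of 65 other genes of the chemokine pathway, such as G protein subunits, kinases and arrestins, 31 were measured for H3K27me3. In deleted against floxed 0 were lower and 2 higher, the Rac activator gene Prex1 with 535, 1334 and 246 counts and the G protein subunit gene Gng2 with 58, 154 and 73. Among all measured genes 5.39% were lower and 4.72% higher in this comparison. From deleted to rescue, 6 genes were called lower and 3 higher, where 11.3% and 7.07% of all measured genes were. Cmklr1, the chemerin receptor gene, had 488, 568 and 354 counts, giving a ratio of 0.376 (0.328 to 0.430), and Adrbk2, a receptor kinase gene, 580, 792 and 740 and a ratio of 0.564 (0.509 to 0.624). Gnai1, Gng2, Gpr35 and Prex1 were the other lower genes, and Fgr and Ptk2b were among the higher ones.

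For H3K4me3 28 of these genes were measured, and from floxed to deleted 3 of them were called lower and 1 higher, where 4.39% and 3.02% of all measured genes were. Arrb2, the arrestin that internalises chemokine receptors, had 130, 50 and 57 counts, and deleted stood at 0.590 (0.417 to 0.823) of floxed, while Gng5 and Pxn were the other lower genes. The strand of Arrb2 and Pxn is not in the sequence table, so whether their windows lie at a start is not known here. Fgr, a myeloid Src-family kinase gene on the plus strand, was called in both marks. It had 30, 22 and 97 H3K27me3 counts and 44, 46 and 14 H3K4me3 counts, with rescue to deleted ratios of 2.66 (1.66 to 4.44) and 0.324 (0.165 to 0.600). The other H3K4me3 call in rescue against deleted was Cklf, which encodes a chemokine-like factor, with 67, 30 and 48 counts, giving a ratio of 1.70 (1.06 to 2.78).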

How the data were processed

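Chromatin immunoprecipitation libraries of 2 histone marks were compared in 3 genotypes with 1 library each, and 3 lists of Flag summits were searched for positions near members. The authors deposited whole-number counts per gene, not normalised; featureCounts, MACS2 and the build mm10 are named without versions in the submitters' processing notes, and an aligner is, however, not given in the sources used here. Summit files hold −log10 scores deposited by the authors, used here as a description only. Rows without a symbol (568, with 0.608% to 0.739% of the counts) were left out.

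The members and lists were chosen with earlier results of these data known. CPM used the total of named genes. Intervals of ratios are exact conditional binomial (Clopper-Pearson) intervals at 95%, and log2 ratios used a prior count of 1. Gene positions came from RefSeq on GRCm38.p6, the assembly of mm10, matched on the Entrez identifier; 36 of 62 counted lengths equal the RefSeq span, so spans of the others are approximate. Members whose starts lay within 1 Mb of the next formed a cluster when there were 3 or more. Named are the members called in any comparison, the densest others and those beside them, called genes within 100 kb and called pathway genes; members with low counts, low or absent H3K27me3 or H3K4me3 at their own start or far end, and Ppef2, Naaa, Sdad1, Art3, Fyco1 and Elavl1, were named after their values were seen. The split of H3K4me3 windows by strand and the H3K27me3 sums that leave out named members were also chosen after seeing the data. Scripts were tested on simulated counts. Python 3.11.15, scipy 1.17.1, edgeR 4.0.16 and DESeq2 1.42.0 were used, the last 2 only for alternative scalings.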

Additional observations from a re-analysis of the deposited data

How the results depend on the processing

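No paired analysis was possible because each group has 1 library. Depth is a limit: every called member averaged under 50 counts. With a mean of at least 50 counts, 12 members remained measured for H3K27me3 and 2 for H3K4me3. Of these, 0 were called lower and 0 higher in every comparison of both marks. Over the 7681 genes kept for H3K27me3, calls came to 435 lower and 276 higher from floxed to deleted. From deleted to rescue they came to 734 and 564, and from floxed to rescue to 528 and 399. Over the 4374 genes kept for H3K4me3 they came, in the same order, to 128 and 68, 192 and 179, and 116 and 64. With so few members, 0 calls do not set the members apart from other genes. With a ratio of at least 2, the higher members in rescue against deleted were 0 for H3K27me3 (Ccr9 lost) and 1 for H3K4me3 (Cxcr4 lost). The 4 lower H3K27me3 members stayed called. Among all genes 484 of 10604 were then lower and 323 higher for H3K27me3, and 194 of 6681 lower and 80 higher for H3K4me3. With no filter, H3K27me3 gave 2 lower and 1 higher of 53 members in deleted against floxed and 1 higher in rescue against floxed. Over all 23688 genes then compared, the calls numbered 774 lower and 840 higher from floxed to deleted. From floxed to rescue they numbered 1202 lower and 1000 higher. For H3K4me3, 54 members were compared without the filter. From deleted to rescue 2 of these members were lower and 3 higher. From floxed to rescue 2 were lower (Cxcl3 and Cxcl16) and 1 higher (Ccl5). Over all 21354 genes the calls numbered 629 lower and 375 higher from deleted to rescue, and 363 and 335 from floxed to rescue.

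Scaling to 1123 olfactory receptor genes gave 2 lower H3K27me3 members in deleted against floxed, 2 higher in rescue against deleted, where Cxcr3 was not called at -0.92 log2, and 1 higher H3K4me3 member, Cxcr4, in rescue against floxed. The median over all genes then lay, in log2, at -0.15 for H3K27me3 in deleted against floxed, and at 0.39 and 0.28 for H3K4me3 in rescue against deleted and against floxed. All genes then split into 1180 lower and 235 higher in place of 572 and 500 (H3K27me3, deleted against floxed), 808 and 1244 in place of 1196 and 750 (H3K27me3, rescue against deleted), 398 and 140 in place of 293 and 202 (H3K4me3, deleted against floxed), 133 and 1555 in place of 399 and 300, and 77 and 820 in place of 262 and 128 (H3K4me3, rescue). With edgeR TMM factors the splits were 991 and 935 for H3K27me3 in rescue against deleted, and 403 and 139 and 341 and 91 for H3K4me3 in deleted and in rescue against floxed. TMM factors and DESeq2 size factors each called 1 lower H3K4me3 member, Cxcl12, in rescue against floxed. The CXC ligand H3K4me3 ratio was 0.596 to 0.759 over the 3 scalings. Within 50 kb there were 6 pairs of a summit and a member over the 3 lists in place of 3. No further summit was found, as the same place near Ccl8 was then also paired with Ccl12. Among summits at or above the median score of their list there was 1 pair within 10 kb. The cause of these changes was not tested.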
